A study of Mus musculus with 6 samples.

Results

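The keratin genes of simple epithelia, Krt7, Krt8, Krt18, Krt19, Krt20 and Krt23, and the vimentin gene Vim were examined in cancer-associated fibroblasts (CAFs) of mouse colonic adenomas. These 7 genes were chosen by name, and each of them has 1 row among the 49548 genes of the deposited table. Both groups of cells came from Col6a1-Cre; Rosa26-mTmG mice of the strain C57/BL6, whose adenomas were induced with AOM/DSS, a combination of a carcinogen and a colitis-inducing agent. In the mTmG reporter, recombination by Cre switches the membrane label from Tomato to GFP. GFP therefore marks cells in which the Col6a1-Cre transgene was active at some time, and not necessarily cells that expressed Col6a1 when they were sorted. Col6a1+ CAFs were the GFP+ cells and Col6a1- CAFs the Tomato+ cells, both sorted as CD45-, EpCAM-, CD31- and Ter119-, with 3 libraries per group. Each library was a pool of tumors from several mice, and the labels give no ages.

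Keratins form filaments as obligate pairs of a type I and a type II chain. In simple epithelia such as the colonic mucosa the type II chain is mostly Krt8, with Krt7 in ducts and some other simple epithelia, and the type I partners are Krt18, Krt19 and Krt20, of which Krt20 marks differentiated cells of the intestinal surface. Krt23 is a divergent type I keratin. Vimentin is the type III filament protein of fibroblasts, endothelium and blood cells, and it polymerizes without a keratin partner. The coexpression of keratins and vimentin is widely used to describe cells between epithelial and mesenchymal states, and the levels of both in a sorted mesenchymal fraction also depend on which other cells it holds.

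The members lie in 3 regions of the genome (mm10 coordinates of the table). On chromosome 15, Krt7 spans 101411043 to 101430313 on the plus strand, Krt8 spans 101996711 to 102004342 on the minus strand and Krt18 spans 102028216 to 102032026 on the plus strand. Krt8 and Krt18 are thus a type II and a type I gene side by side, with 23873 bases and no other gene of the table between them. On chromosome 11, all on the minus strand, Krt20 spans 99428403 to 99438150, Krt23 spans 99477974 to 99493137 and Krt19 spans 100140810 to 100148665, and Krt20 and Krt23 are 39823 bases apart with no gene between them. Vim spans 13573927 to 13582826 on the plus strand of chromosome 2.

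Sequence upstream of the start is shown for Krt18, Krt23 and Krt20, since the first and second of these differed most between the groups and Krt20, the neighbour of Krt23, did not pass the test. The sequences are from RefSeq on GRCm38.p6, read 5′ to 3′ on the gene's strand, and stop where the GENCODE M21 gene begins. Capitals mark CACCTG, the E-box form that repressors of the Snail and Zeb families are known to bind, and TATAA, the core of a TATA box. The regions are chr15:102027966-102028179 (plus strand) for Krt18, chr11:99493138-99493370 (minus strand) for Krt23 and chr11:99438154-99438403 (minus strand) for Krt20.
Krt18: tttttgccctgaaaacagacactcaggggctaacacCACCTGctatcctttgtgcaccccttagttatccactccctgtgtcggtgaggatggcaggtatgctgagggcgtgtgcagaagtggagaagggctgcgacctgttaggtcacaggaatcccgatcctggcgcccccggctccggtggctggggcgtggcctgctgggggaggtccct
Krt23: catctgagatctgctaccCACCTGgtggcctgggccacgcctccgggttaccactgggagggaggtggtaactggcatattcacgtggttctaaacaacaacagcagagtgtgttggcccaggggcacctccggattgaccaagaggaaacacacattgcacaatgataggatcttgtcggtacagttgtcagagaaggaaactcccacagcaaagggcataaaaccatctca
Krt20: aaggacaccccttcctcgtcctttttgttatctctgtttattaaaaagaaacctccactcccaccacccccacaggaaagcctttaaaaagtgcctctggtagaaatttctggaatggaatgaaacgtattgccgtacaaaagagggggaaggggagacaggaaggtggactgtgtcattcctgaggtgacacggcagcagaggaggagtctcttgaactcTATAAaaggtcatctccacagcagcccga
These motifs were chosen after the sequences had been seen. Over the 250 bases before the RefSeq start, for which 6 of the 7 members had an entry (Krt19 had none), CACCTG on either strand was present in Krt7, Krt8, Krt18 and Krt23 and in 17.2% of 32851 promoters of the same length. It began 44 bases before the start in Krt7, 111 in Krt8, 214 in Krt18 and 232 in Krt23, and these letters were not in the windows of Krt20 or Vim. The CACCTG of Krt18 and Krt23 lies before the GENCODE M21 gene, whereas that of Krt7 and Krt8 lies inside it. TATAA, searched on the gene's strand, was present in Krt18, Krt20 and Vim and in 16.0% of all promoters. That of Krt18 and Vim lies inside the GENCODE gene, and for Krt18 thus outside the bases shown. GGGCGG, the GC box, was present in Krt7, also inside the GENCODE gene, and in 32.7% of promoters. A match is a description of the letters and does not show that a factor binds there.

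Of the 6 keratins, 5 were lower in Col6a1+ than in Col6a1- CAFs. The log2 fold changes of these 5 lay between -3.24 for Krt18 and -1.61 for Krt19, whereas Krt20 overlapped between the groups. Vim was higher in all 3 Col6a1+ libraries, by 0.90 on the log2 scale, but did not pass the test. Levels are normalized counts, read counts per gene that the authors divided by a size factor of the library, and a call means an adjusted p under 0.05 by limma across 26402 genes. Among all genes tested, 1.96% were called lower and 2.66% higher in Col6a1+ CAFs. This main fit took the libraries as unpaired. With the replicate number as a block, limma called 0 of the 6 keratins, although 5 were lower at an unadjusted p under 0.05. The median log2 fold change of the 6 keratins was -2.30, beside -0.27 for all genes tested. The normalized counts of a library summed to between 3039152 and 3425249, and between 14530 and 20511 genes were detected, the fewest in Col6a1+ replicate 1.

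**Figure D1:**
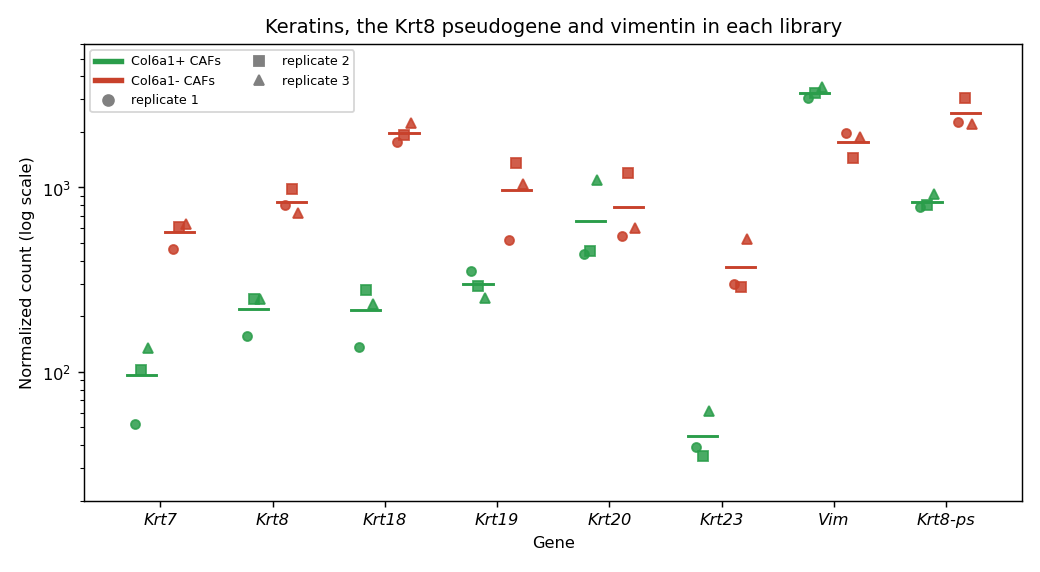
Normalized counts (log axis) of the 6 keratins, Vim and the Krt8 pseudogene in 3 Col6a1+ (green) and 3 Col6a1- (red) libraries, with a marker for each replicate and a line at the group mean. The groups stand apart for Krt7, Krt8, Krt18, Krt19, Krt23, Vim and Krt8-ps and overlap for Krt20.

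Among the type II chains, Krt8 had 157, 250 and 249 normalized counts in the 3 Col6a1+ libraries and 802, 984 and 726 in the 3 Col6a1- libraries. The lowest Col6a1- library was above the highest Col6a1+ library, and the means were 219 ± 53.4 and 837 ± 133 (SD, n = 3 each). The log2 fold change was -1.95 (SE 0.31), with an adjusted p of 0.00613 by limma. Krt7 had 52, 102 and 134 normalized counts in Col6a1+ CAFs and 465, 614 and 637 in Col6a1- CAFs, again without overlap and with means of 96.0 ± 41.3 and 572 ± 93.4 (SD, n = 3 each). The difference was -2.65 on the log2 scale (SE 0.39), with an adjusted p of 0.00448 by limma, and Col6a1+ replicate 1 was the lowest library for both type II genes.

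Krt18, the usual partner of Krt8, showed the largest difference of the 6 keratins. It had 137, 277 and 232 normalized counts in Col6a1+ CAFs and 1754, 1921 and 2234 in Col6a1- CAFs. The mean of Col6a1- CAFs was 9.15-fold that of Col6a1+ CAFs (1970 ± 244 and 215 ± 71.5, SD, n = 3 each), and the log2 fold change was -3.24 (SE 0.32), with an adjusted p of 0.000862 by limma. Krt23, the divergent type I chain, was also separated. It had 39, 35 and 61 normalized counts in Col6a1+ CAFs and 301, 290 and 523 in Col6a1- CAFs, and its log2 fold change was -3.00 (SE 0.40), with an adjusted p of 0.00248 by limma.

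Krt19, a type I keratin that has no tail domain, varied more within Col6a1- CAFs. It had 354, 293 and 252 normalized counts in Col6a1+ CAFs and 521, 1356 and 1048 in Col6a1- CAFs. The groups did not overlap, but Col6a1- replicate 1 was closer to the Col6a1+ libraries than to the other Col6a1- libraries. The log2 fold change was -1.61 (SE 0.37), with an adjusted p of 0.0360 by limma. This call was lost in 9 of 14 alternatives, the adjusted p ranging from 0.0159 to 0.261 over all 14. It was lost when any single library was left out (0.0732 to 0.226). Among the 14, summing Krt8 with its pseudogene left the Krt19 values as they were and could not remove the call.

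Krt20 had 438, 453 and 1094 normalized counts in Col6a1+ CAFs and 544, 1198 and 606 in Col6a1- CAFs. Each group held 1 library well above its other two, replicate 3 of Col6a1+ and replicate 2 of Col6a1- CAFs, and the groups overlapped. The log2 fold change was -0.29 (SE 0.43), with an adjusted p of 0.717 by limma, and it was between -0.72 and 0.07 when a library was left out, the positive value without Col6a1- replicate 2. A difference of Krt20 was therefore not detectable with these libraries.

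The absence of overlap is a weaker criterion than the test. Every Col6a1+ library was below every Col6a1- library in 11.6% of all genes tested and above in 7.91%, and the first pattern held for 5 of the 6 keratins. In bulk samples, fewer cells of a type and less RNA per cell cannot be told apart. The replicate numbers were read as pairs of libraries, and when that number entered the fit as a block none of the 26402 genes was called, the smallest adjusted p of limma being 0.0612. In that fit the adjusted p was 0.0612 for Krt7, Krt18 and Krt23, 0.0630 for Krt8 and 0.153 for Krt19, and all 5 were lower at an unadjusted p under 0.05. Without Col6a1- replicate 1 no keratin was called by limma, although 5 were lower at an unadjusted p under 0.05, and 2 and 1 were called without Col6a1- replicates 2 and 3. When the block was combined with an average of 10 or more normalized counts, a choice made after seeing the data, the 5 keratins were called again. Their adjusted p by limma was then 0.00105 for Krt18, 0.00193 for Krt23, 0.00218 for Krt7, 0.00386 for Krt8 and 0.0224 for Krt19, in a fit that called 6.44% of 13515 genes lower and 7.26% higher.

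The value of Krt8 has a further limit, since the table also lists Krt8-ps, a processed pseudogene of Krt8 on chromosome 7 (23357125 to 23358069, plus strand). It is 98.6% identical to the Krt8 transcript over 941 bases, with 13 mismatches, but the last 774 bases of that transcript are outside the aligned part. Krt8-ps had 786, 803 and 921 normalized counts in Col6a1+ CAFs and 2277, 3067 and 2219 in Col6a1- CAFs, without overlap. Its log2 fold change was -1.58 (SE 0.26), with an adjusted p of 0.00849 by limma and of 0.0663 with the replicate block. Reads of the shared part could have been assigned to either row, so the separate levels of Krt8 and Krt8-ps are uncertain. With both rows summed before the fit, also chosen after seeing the data, the log2 fold change was -1.66 and the adjusted p by limma 0.00656. A pseudogene of Krt18, Gm17847, was at 0 in 5 libraries and at 4 normalized counts in Col6a1- replicate 3.

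The fold changes of the 6 keratins were unequal, and the composition of their counts, which are not corrected for length, differed between the groups. The 6 keratins together had 1177, 1410 and 2022 normalized counts in Col6a1+ CAFs and 4387, 6363 and 5774 in Col6a1- CAFs. Of these, Krt20 made up 37.2%, 32.1% and 54.1% in Col6a1+ CAFs and 12.4%, 18.8% and 10.5% in Col6a1- CAFs. Krt18 showed the opposite pattern, with 11.6%, 19.6% and 11.5% in Col6a1+ CAFs and 40.0%, 30.2% and 38.7% in Col6a1- CAFs. Neither share overlapped between the groups. The log2 ratio of Krt8 to Krt18, whose products pair in the filament, was 0.20, -0.15 and 0.10 in Col6a1+ CAFs and -1.13, -0.97 and -1.62 in Col6a1- CAFs. It was higher in all 3 Col6a1+ libraries, also with Krt8-ps counted as Krt8 (2.78, 1.93 and 2.33 against 0.81, 1.08 and 0.40). These ratios are given as descriptions and were not tested.

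**Figure D2:**
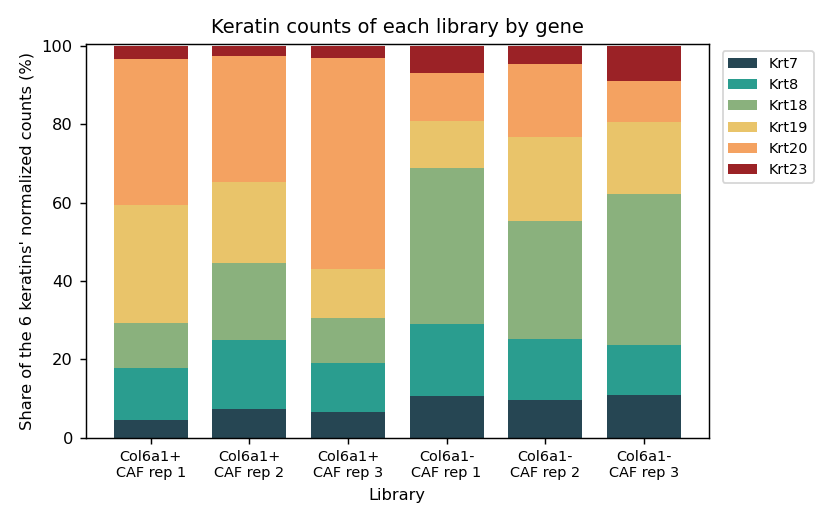
Share of each of the 6 keratins (%) in their summed normalized counts, one stacked bar per library. Krt20 takes 32.1% to 54.1% in the 3 Col6a1+ libraries and 10.5% to 18.8% in the 3 Col6a1- libraries, and Krt18 shows the reverse order.

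Markers of epithelial cells moved with the keratins. Although the cells had been sorted as EpCAM-, Epcam transcripts were present in every library, with 1074, 884 and 615 normalized counts in Col6a1+ CAFs and 3107, 4129 and 3730 in Col6a1- CAFs. Its log2 fold change was -2.12 (SE 0.29), with an adjusted p of 0.00330 by limma. Cdh1, the cadherin of epithelial junctions, had 2999, 2344 and 2580 against 10493, 15452 and 11963 normalized counts, with a log2 fold change of -2.25 (SE 0.28). Of 20 epithelial markers other than keratins, 12 were called lower and 0 higher in Col6a1+ CAFs, all 20 had a negative log2 fold change, and the median was -2.22. With the replicate block, 0 of the 20 were called over all genes and 16 of 19 with an average of 10 or more. When a library was left out, 0 to 8 were called, 0 without Col6a1- replicate 1, 2 without Col6a1- replicate 2 or 3, 5 without Col6a1+ replicate 3 and 7 without Col6a1+ replicate 1. Their summed level was 6170 to 8466 normalized counts in Col6a1+ CAFs and 27084 to 45988 in Col6a1- CAFs, and none of them was at 0 in all 3 Col6a1+ libraries. The part of epithelial RNA in the keratin differences was not tested.

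Relative to Epcam, the keratins fell into 3 patterns of overlap or separation between the groups. The log2 ratios of Krt7, Krt8 and Krt23 to Epcam overlapped between the groups, with means of -1.97 ± 0.75 in Col6a1+ and -2.13 ± 0.21 in Col6a1- CAFs for Krt8 (SD, n = 3 each). Overlap did not mean equal ratios. The mean of Col6a1+ minus that of Col6a1- CAFs was -0.55 for Krt7 and -0.91 for Krt23, beside 0.16 for Krt8 and 0.51 for Krt19. Krt18 was lower relative to Epcam in the Col6a1+ libraries, at -2.97, -1.67 and -1.41 against -0.83, -1.10 and -0.74. Krt20 was higher relative to Epcam in the Col6a1+ libraries, at -1.29, -0.97 and 0.83 against -2.51, -1.79 and -2.62. Krt19 was also higher, though by little over the nearest library, at -1.60, -1.59 and -1.29 against -2.58, -1.61 and -1.83. With Cdh1 in place of Epcam each of the 6 keratins showed the same pattern of overlap or separation. These ratios are descriptions of the libraries without a test.

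**Figure D3:**
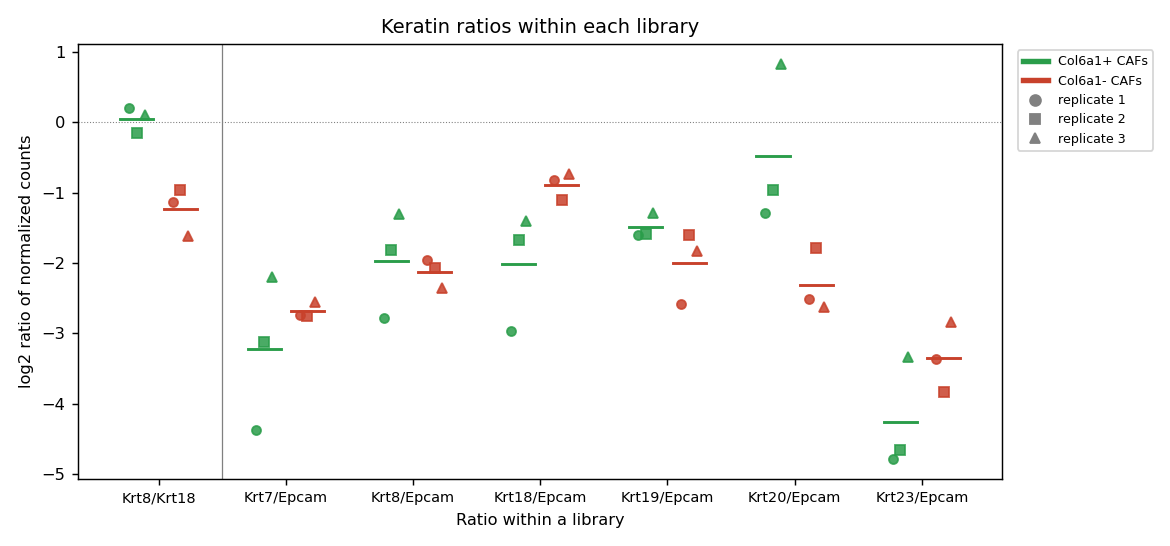
log2 ratios of normalized counts within each library, of Krt8 to Krt18 (left of the line) and of each keratin to Epcam, for 3 Col6a1+ (green) and 3 Col6a1- (red) libraries with lines at the group means. Krt18 per Epcam is lower, Krt19 and Krt20 per Epcam are higher in the Col6a1+ libraries, and the other 3 keratins overlap.

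Vim had 3067, 3237 and 3508 normalized counts in Col6a1+ CAFs and 1984, 1437 and 1876 in Col6a1- CAFs. Each Col6a1+ library was above each Col6a1- library, and the means were 3271 ± 222 and 1766 ± 290 (SD, n = 3 each). The log2 fold change of 0.90 (SE 0.26) had an adjusted p of 0.0878 by limma, and of 0.119 with the replicate block. It passed the threshold among genes with an average of 10 or more normalized counts, with an adjusted p of 0.0477, where 6.03% of genes were called higher, and with limma-voom, with 0.0348. With both the block and this filter its adjusted p by limma was 0.0403. The difference stayed between 0.76 and 0.99 when any library was left out, with an adjusted p of 0.113 to 0.255.

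The differences of Vim and of the keratins had opposite signs. For every 100 normalized counts of Vim there were 38.4, 43.6 and 57.6 of the 6 keratins in Col6a1+ CAFs and 221, 443 and 308 in Col6a1- CAFs, without overlap. Vim is one of many genes of mesenchymal cells. Of 10 other markers of fibroblasts and mural cells, 8 were called higher and 0 lower in Col6a1+ CAFs. The median of their log2 fold changes was 2.36. These included the mural markers Rgs5 at 6.16, Cspg4 at 6.15 and Pdgfrb at 4.28 and the collagen gene Col1a1 at 2.21. The 10 markers summed to 81994 to 96418 normalized counts in Col6a1+ CAFs and 7511 to 16127 in Col6a1- CAFs. In Col6a1- CAFs this was below the sum of the 20 epithelial markers, 27084 to 45988. Sums of different lists do not give shares of cells. With the replicate block 0 of the 10 were called over all genes and 8 with an average of 10 or more, and leaving out a library gave 3 to 6 calls, 3 without Col6a1- replicate 1 and 4 without Col6a1- replicate 2 or 3. The log2 ratio of Vim to Pdgfrb was 0.56, 1.28 and 1.12 in Col6a1+ CAFs and 4.11, 4.01 and 5.02 in Col6a1- CAFs, lower in all 3 Col6a1+ libraries, as was its ratio to Col1a1. The ratio of Vim to Dcn, a proteoglycan gene of fibroblasts, overlapped, with means of -0.76 ± 0.20 and -0.75 ± 0.71 (SD, n = 3 each).

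Of the other intermediate filament genes of types III to VI, 10 of 12 were tested, and 2 were called higher and 0 lower in Col6a1+ CAFs. Des, the muscle filament protein desmin that is also found in pericytes, had 865, 1108 and 1372 normalized counts in Col6a1+ CAFs and 65, 82 and 26 in Col6a1- CAFs. Nes, the type VI filament protein nestin, had 160, 155 and 258 against 5, 3 and 8. Both were thus well separated, with log2 fold changes of 4.37 (SE 0.43, adjusted p 0.000862) and 4.96 (SE 0.57, adjusted p 0.00158) by limma, and both lost the call with the replicate block (adjusted p 0.0612 each) and without Col6a1- replicate 1. Synm, which joins desmin and vimentin filaments, had a log2 fold change of 1.69 (SE 0.65) with an adjusted p of 0.209. The nuclear lamin Lmnb1 had the lowest value of the list, -1.21 (SE 0.34), with an adjusted p of 0.0747. It passed by limma with an average of 10 or more (0.0492) and with the block and this filter (0.0362). The median of the list was 0.18, and 0.38 over the 7 genes above 3 counts in some library.

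Of 48 other keratin genes, 30 were tested, 3 were called lower and 0 higher, and 25 had a negative log2 fold change. Krt17, a type I keratin of stressed and basal epithelia, had 9, 2 and 3 normalized counts in Col6a1+ CAFs and 83, 67 and 93 in Col6a1- CAFs. The log2 fold change was -4.04 (SE 0.72), with an adjusted p of 0.0115 by limma. Krt90 had 0, 6 and 1 against 87, 35 and 59 (adjusted p 0.0243). Krt35, a hair keratin, was at 0 in the 3 Col6a1+ libraries and at 20, 6 and 13 in the others, at least 4.33-fold higher in Col6a1- CAFs when set against 3 counts per library (adjusted p 0.0442). All 3 calls were lost with the replicate block over all genes, and without Col6a1+ replicate 3 or any 1 of the Col6a1- libraries. That of Krt35 was lost whichever library was left out (adjusted p 0.0621 to 0.156 by limma). The list had sums of 185 to 432 normalized counts in Col6a1+ and 933 to 1251 in Col6a1- CAFs. Its median log2 fold change was -1.56, and -1.21 over the 24 genes above 3 counts in some library. For this second median, genes at or under 3 in a whole group were set against 3 counts. Krt24, Krt33b and Krt42 had Col6a1- means under 3, so their set values were positive although their log2 fold changes were negative.

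Plakins and desmosomal plaque proteins link intermediate filaments to junctions, to the matrix or to other filaments. Of 10 of their genes tested, 2 desmosomal genes were called lower and 1 plakin gene higher in Col6a1+ CAFs, and the median log2 fold change was -2.19. Dsp, desmoplakin, which anchors keratins at desmosomes, had 108, 235 and 157 normalized counts in Col6a1+ CAFs and 539, 913 and 810 in Col6a1- CAFs. The log2 fold change was -2.21 (SE 0.36), with an adjusted p of 0.00769 by limma. Pkp3, a plakophilin of the desmosomal plaque, had -2.16 (SE 0.36) and an adjusted p of 0.00862. Dst, dystonin, whose isoforms include a hemidesmosomal one, had 252, 202 and 220 against 53, 87 and 64 normalized counts and a log2 fold change of 1.73 (SE 0.36), with an adjusted p of 0.0215. Plec, plectin, a linker of vimentin and keratin filaments alike, had 134, 277 and 288 against 131, 300 and 327 and overlapped between the groups. The lowest value was that of Evpl, envoplakin, at -3.78 (SE 1.03, adjusted p 0.0703). With the replicate block 0 of the 10 were called over all genes, and 6 lower and 1 higher with an average of 10 or more. None of the 3 calls held without Col6a1+ replicate 3 or without any 1 of the Col6a1- libraries, Dst was not called without Col6a1+ replicate 2, and 4 genes were called lower without Col6a1+ replicate 1.

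**Figure D4:**
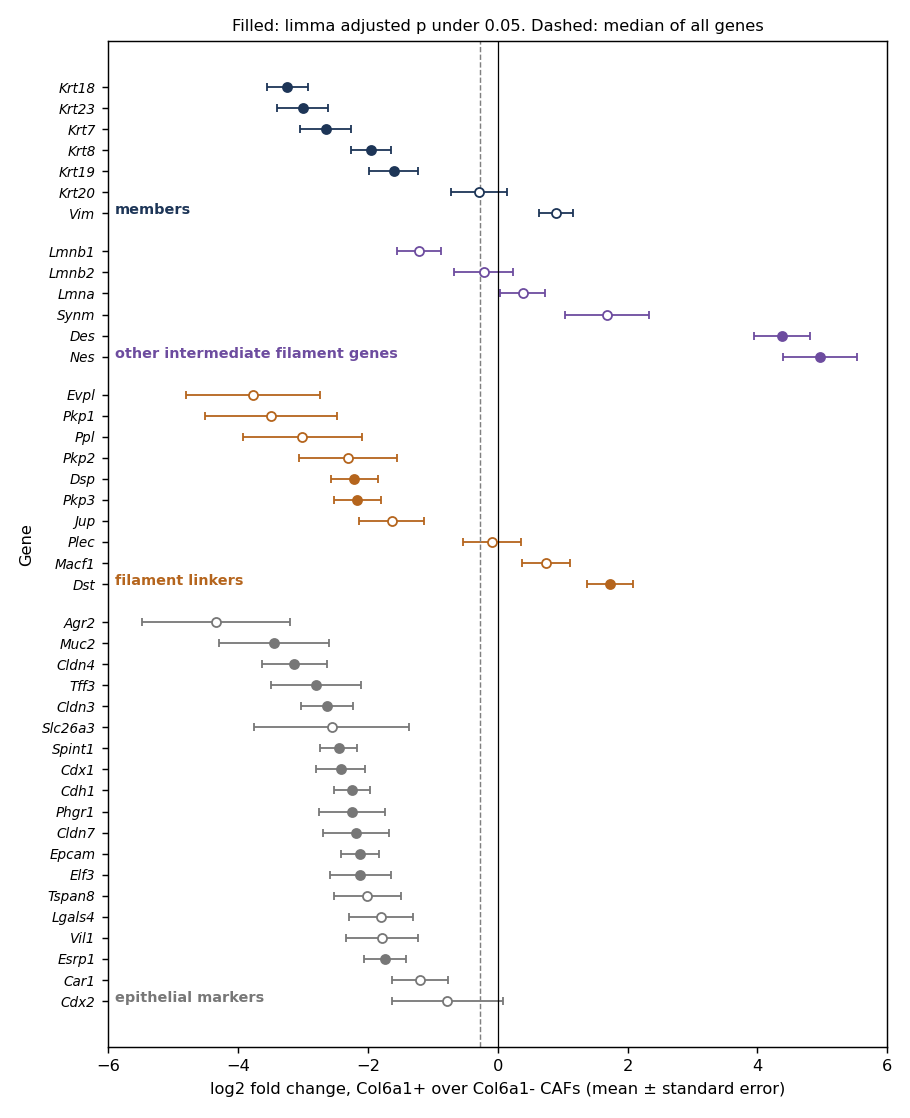
log2 fold change with its standard error (3 against 3 libraries) of the members, other intermediate filament genes, filament linkers and epithelial markers with an average of 10 or more normalized counts, negative where lower in Col6a1+ CAFs. Filled points have a limma adjusted p under 0.05 and the dashed line is the median of all genes tested (-0.27). Of the members, 5 keratins lie with the epithelial markers, Krt20 near 0 and Vim at 0.90.

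Markers of the other cell types excluded by the sort, and of mesothelium, another keratin-producing tissue, were examined in the same way. Mesothelial markers summed to 1 to 30 normalized counts in Col6a1+ CAFs and 16 to 45 in Col6a1- CAFs, with 0 of 8 tested called in either direction (1 lower by limma-voom). Its marker Msln had 0, 2 and 1 against 33, 5 and 26. Immune markers summed to 47 to 99 against 311 to 546, with 1 of 10 called lower, the neutrophil gene S100a8 at -3.35 (adjusted p 0.00300 by limma). S100a8 had 23, 17 and 29 against 211, 387 and 167 normalized counts and made up most of the Col6a1- sum. Ptprc, the gene of CD45, had 0, 2 and 0 against 7, 8 and 3. Endothelial cells also express Vim, and their markers summed to 1065 to 1351 against 357 to 601. Most of the Col6a1+ sum was Esam, called higher at 4.11, with 943, 971 and 1125 against 54, 93 and 38 normalized counts. The direction of the sum was therefore that of Esam. Of the other 7 endothelial markers 0 was called. Their log2 fold changes were negative, but those of Emcn and Tek were 0.91 and 0.31 without Col6a1+ replicate 1, and the mean of Emcn was higher in Col6a1+ CAFs (25.3 against 15.7 normalized counts). The calls of S100a8 and Esam were lost with the replicate block (adjusted p 0.0717 and 0.0612 by limma) and without Col6a1- replicate 1, that of S100a8 also without Col6a1- replicate 2 or 3. The part of these cell types in the values of the keratins and Vim was not tested.

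By the root-mean-square difference of centred log2 values over the 6 libraries, the genes most like Krt8 among 5520 genes with an average of 100 or more normalized counts were Frrs1 (0.17) and Dennd2d (0.20). Those most like Vim were the ligand gene Bmp2 (0.06), Spred1 (0.11), an inhibitor of Ras signaling, and Gadd45g (0.13). Among the members themselves the most alike were Krt7 and Krt18 (0.37), Krt18 and Krt23 (0.43) and Krt7 and Krt23 (0.44). Krt8 and Krt18, although neighbours and partners, were at 0.68, and Krt20 and Krt23 at 1.47.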

How the data were processed

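QuantSeq 3′ mRNA libraries of 3 Col6a1+ and 3 Col6a1- CAF samples were analysed, grouped by their labels. The authors mapped reads to mm10 with TopHat2, mapped the remaining reads with Bowtie2, counted them per gene with GenomicRanges and normalized with DESeq through metaseqR. They deposited the log2 of the normalized count plus 1. Transformed back, 100% of the values are whole normalized counts within a tolerance of 1e-06, so low values are coarse. Fold changes on this log2 scale understate changes of low genes. Fold change and significance columns of the authors' own comparison and 6 other columns of per-sample values were not used.

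limma 3.58.1 in R 4.3.3 (linear model of the groups, eBayes with trend, two-sided) was fitted to 26402 genes whose normalized counts summed to 1 or more, with Benjamini-Hochberg adjustment of the p-values. The fit was also run on simulated counts with the same dispersion for all genes and no replicate effect. That run does not bear on how calls depend on the filter or the block. Replicate numbers were read as pairs for the block, which the labels do not state, and the main fit left them out. Over 13515 genes the deviations from group means correlated at 0.245, 0.125 and 0.144 for equal numbers and at -0.245 to 0.15 for different ones. These correlations do not settle the pairing, since replicate 2 of Col6a1+ and replicate 3 of Col6a1- CAFs correlated at 0.15. P-values set each group difference against the spread between these pooled samples, which eBayes moderated with a trend over all genes. Alternatives were library size alone, an average of 10 or more, no filter, a pseudocount of 0.1, limma-voom, the replicate block and leaving out each library, with the filter on low values applied again; the block with an average of 10 or more and the sum of Krt8 and Krt8-ps were added after seeing the data. The members and lists were chosen with earlier results of these data known. Named genes are the members, their pseudogenes, list genes that were called, had the extreme fold changes or define a cell type, and the 3 genes nearest to Krt8 and to Vim, of which 1 is not reported here; others named (Synm, Plec) were chosen after their values were seen. Pseudogenes were found with BLAST 2.17.0 against GENCODE M21 (at least 85% identity over 300 bases). Tables and plots used Python 3.11.15, NumPy 2.4.6, pandas 2.3.3 and Matplotlib 3.10.9.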

Additional observations from a re-analysis of the deposited data

How the results depend on the processing

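The count of keratins called lower, 5 of 6, was 5 with library size alone, an average of 10 or more, limma-voom, the block with an average of 10 or more, and Krt8 summed with its pseudogene, and 4 with a pseudocount of 0.1. It was 0 without a filter on low values and 0 with the replicate block by limma, while 5 were lower at an unadjusted p under 0.05 in both. When a library was left out it ranged from 0 to 4, with 0 without Col6a1- replicate 1, 2 without Col6a1- replicate 2 and 1 without Col6a1- replicate 3, fits that leave fewer samples. Without Col6a1- replicate 1 limma called 1 of 25839 genes lower in all, and 5 keratins were lower at an unadjusted p under 0.05. Vim passed the threshold with an average of 10 or more (log2 fold change 0.90), with limma-voom (0.85) and with the block and an average of 10 or more (0.90), and ranged from 0.76 to 0.99 when a library was left out. The fold change of Krt20 changed sign, to 0.066, without Col6a1- replicate 2, and ranged from -0.719 to 0.066 when a library was left out. No other member changed direction in the alternatives run. The cause of these shifts was not tested. With 3 pooled libraries per group, a difference of the size seen for Krt20 could not be resolved.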

Other observations

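Erythroid markers, with 0 of 5 called by limma in either direction, were unevenly spread in Col6a1+ CAFs, where their sum was between 110 and 1713 normalized counts, and between 281 and 482 in Col6a1- CAFs. Col6a1+ replicate 3 had the highest values, with 34, 165 and 710 normalized counts of Hba-a1 in the 3 Col6a1+ libraries. This library also had the highest Krt20, Krt7, Krt23 and Vim of the group, and a link with the erythroid markers was not tested. Glial markers summed to 60 to 73 normalized counts in Col6a1+ and 29 to 77 in Col6a1- CAFs, with 0 of 6 called (1 higher by limma-voom). Among the epithelial markers, 17 of 20 were highest in replicate 2 of the Col6a1- CAFs and 14 were lowest in replicate 1. These counts were 6 and 7 of 10 filament linkers and 6 and 5 of 8 endothelial markers. For the fibroblast and mural markers they were 5 and 0 of 10. The share over all genes is not given, so the order is not shown to be particular to epithelial markers. Krt19 and Krt20 were also highest in replicate 2 and lowest in replicate 1 of the Col6a1- CAFs. The other keratins differed, with Krt7, Krt18 and Krt23 highest in Col6a1- replicate 3 and Krt8 lowest there.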
